A study of Mus musculus with 6 samples.

Results

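The genes described here were 10 transcription factors of the lens lineage, taken as the rows of the deposited count tables whose Ensembl identifier carries the symbol Pax6, Foxe3, Pitx3, Sox1, Sox2, Six3, Prox1, Maf, Hsf4 or Tfap2a. All 10 were found among 56940 genes listed per library, and all 10 passed the low-count filter that kept 14676 genes. The libraries came from lens capsules with attached lens epithelial cells (LECs) of wildtype C57BL/6 mice in a model of cataract surgery, in which the fiber cell mass is taken out and the capsule with its epithelium stays in the eye. Capsules taken 5 days after the operation (3 libraries) were set against capsules taken at the operation (0 h, 3 libraries), each library being a pool of 5 capsules. Mice were operated on in one eye and then, 5 days on, in the other, when both capsules were taken, so the 0 h capsules come from animals that also carried an operated eye. Each library held 6207387 to 9774343 reads in genes. Most lens markers were present at both times. None of 12 lens epithelium markers had 0 counts over the libraries of a time. Among them Ndp, which did not pass the filter, had only 10 counts at 5 days and 6 at 0 h. Of 11 matched lens fiber markers only Birc7 was at 0, at 5 days. Replicate 3 at 5 days stood apart in holding keratins of basal surface epithelium, with Krt14 at 45.8 CPM and Krt5 at 19.9 CPM, both at most 0.318 CPM in the 5 other libraries. Both belong to a list of 13 corneal and conjunctival markers that summed lowest in that library. The sum was 462 CPM there, against 555 and 738 CPM in replicates 1 and 2, and most of it was Aldh3a1. Nothing in the labels says whether a 5 day pool and a 0 h pool share mice, and p-values measure the spread between pools.

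As background, Pax6 and Six3 set up the eye and lens field in the embryo, and the SoxB1 factors Sox2 and Sox1 act there with Pax6, Sox2 early and Sox1 later in fiber cells, where the mouse knockout lacks normal γ-crystallin expression. Foxe3 and Pitx3 are needed for the lens epithelium, and mouse mutants in either form small or no lenses. Tfap2a acts in the lens vesicle and epithelium. Prox1, Maf and Hsf4 drive fiber differentiation: Prox1 is needed for cell cycle exit and fiber elongation, Maf for crystallin expression, and Hsf4, a heat shock factor of the lens, for late fiber maturation.

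Promoters of 4 members are printed so that the start regions of a pair of genes that fell (Foxe3, Sox1) can be read beside those of a pair that did not pass the test (Sox2, Six3). Each run holds 250 bases before and 50 after the start that RefSeq gives, 5′ to 3′ on the gene's strand, on build GRCm38.p6, and capitals mark matches on either strand to the CCAAT box, the AP-1 motif TGACTCA, the cAMP response motif TGACGTCA or the octamer motif ATGCAAAT. The Foxe3 promoter is chr4:114926018-114926317 on the minus strand, that of Sox1 chr8:12395269-12395568, that of Sox2 chr3:34649745-34650044 and that of Six3 chr17:85620584-85620883, the last 3 on the plus strand.
Foxe3: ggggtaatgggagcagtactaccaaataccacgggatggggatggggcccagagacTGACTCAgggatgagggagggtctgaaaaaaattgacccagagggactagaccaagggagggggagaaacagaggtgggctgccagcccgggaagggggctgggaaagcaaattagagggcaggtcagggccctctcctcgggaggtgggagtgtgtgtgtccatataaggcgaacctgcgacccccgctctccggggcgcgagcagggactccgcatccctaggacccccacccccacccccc
Sox1: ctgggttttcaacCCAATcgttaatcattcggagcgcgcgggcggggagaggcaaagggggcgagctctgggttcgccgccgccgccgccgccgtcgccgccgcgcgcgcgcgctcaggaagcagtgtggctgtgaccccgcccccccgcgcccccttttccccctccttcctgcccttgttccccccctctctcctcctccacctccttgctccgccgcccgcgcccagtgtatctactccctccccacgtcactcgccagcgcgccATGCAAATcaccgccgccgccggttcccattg
Sox2: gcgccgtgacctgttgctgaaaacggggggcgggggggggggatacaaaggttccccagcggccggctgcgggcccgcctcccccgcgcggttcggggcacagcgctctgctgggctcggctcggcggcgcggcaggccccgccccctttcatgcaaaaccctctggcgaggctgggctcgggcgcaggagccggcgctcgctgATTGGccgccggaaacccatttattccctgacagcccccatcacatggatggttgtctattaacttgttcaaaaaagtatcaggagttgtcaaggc
Six3: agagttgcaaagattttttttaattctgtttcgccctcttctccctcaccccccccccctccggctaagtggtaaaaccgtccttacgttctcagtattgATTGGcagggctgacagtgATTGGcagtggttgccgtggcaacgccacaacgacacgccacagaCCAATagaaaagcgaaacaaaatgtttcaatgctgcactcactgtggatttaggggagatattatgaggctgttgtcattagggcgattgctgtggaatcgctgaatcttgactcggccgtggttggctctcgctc
The CCAAT box, which 37.4% of 32851 mouse promoters of this length hold on one strand or the other, occurred 3 times before the Six3 start, once at -46 to -42 before the Sox2 start and once at -237 to -233 in Sox1. Pax6 held it at -54 to -50 in its upstream promoter, beside the cAMP response motif TGACGTCA at -76 to -69, which 1.79% of promoters hold. In Prox1 it lay at 43 to 47 after the upstream start, and the Foxe3, Pitx3 and Tfap2a promoters held no CCAAT. Foxe3 held the AP-1 motif TGACTCA at -194 to -188, found in 5.2% of promoters, and Sox1 the octamer ATGCAAAT at 18 to 25 after its start, found in 1.74%. The GC box GGGCGG, in 35.7% of promoters, occurred 5 times in Pitx3, 3 times in Sox1 and not in Foxe3 or Six3. Sox2 held it at -223 to -218 and at -111 to -106. Also searched on both strands were TATAAA (13.6% of promoters), TGCTGA (19.5%), AACAAT (10.7%), TAATTA (5.29%) and GAANNTTC (7.86%). Prox1 held TATAAA on the opposite strand at -34 to -29, Sox2 TGCTGA at -236 to -231 and Tfap2a TAATTA at -32 to -27. No member promoter held AACAAT or GAANNTTC, and no match in a member overlapped another. RefSeq promoters were matched for 8 of the 10 members, with 11 starts among them.

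The comparison of 5 days with 0 h asked which lens regulators were kept in the epithelium after the operation and which were lost. Of the 10, 7 fell, 1 passed as higher and 2 did not pass, at an adjusted p under 0.05 in edgeR's quasi-likelihood test. Over all tested genes 22.5% were called lower and 25.1% higher, 47.6% in either direction. The fall was at least 2-fold for 6 of the 10, against 10.9% of all tested genes. The median log2 fold change (5 days over 0 h) was -1.19 for the 10 and -0.01 for all tested genes. The libraries of the times did not overlap for 8 of the 10, and for 58.1% of tested genes. For 7 of them the 5 day libraries all lay below the 0 h libraries, as for 28.2% of tested genes. Hsf4 fell furthest, to 8.8% of its 0 h level, and Tfap2a least, to 73.6%. Pax6 stood slightly higher and Six3 and Sox2 were near their 0 h level. In these bulk libraries fewer cells of a type and less RNA per cell cannot be told apart.

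**Figure D1:**
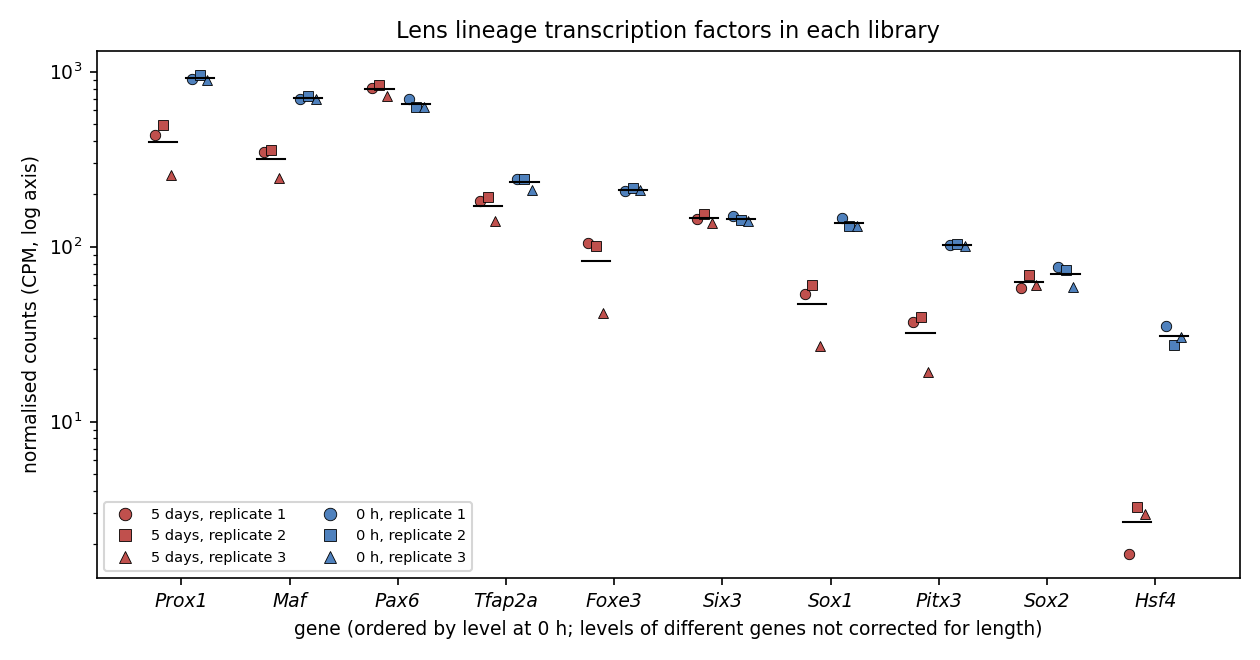
Normalised counts (CPM, log axis) of the 10 factors in each library, 5 days in red left of 0 h in blue, with symbols for replicates and bars for means. The 7 factors that fell and Pax6 have separate groups, while the Six3 and Sox2 groups overlap.

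Pax6, a paired-domain and homeodomain regulator of the eye, stood at 806, 837 and 729 CPM (read counts relative to TMM-scaled library size) at 5 days, against 694, 631 and 629.8 CPM at 0 h. Every 5 day library lay above every 0 h library, with the closest pair at 729 and 694. The mean was 791 ± 55.4 CPM at 5 days and 651 ± 36.6 CPM at 0 h (SD, n = 3 each), a log2 fold change of 0.28 (SE 0.11, 95% interval 0.05 to 0.51), adjusted p = 0.0483 by edgeR's quasi-likelihood test. Leaving out any 1 library other than replicate 3 at 5 days ended this call, with log2 fold changes of 0.24 to 0.32, as did dropping the low-count filter (adjusted p = 0.0754) or tightening it (adjusted p = 0.0511). Over the 16 alternatives its adjusted p by edgeR, DESeq2 or limma ran from 0.00774 to 0.175. The interval spans a 1.03-fold to a 1.43-fold higher level.

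Six3, a homeodomain factor of the lens and forebrain field, stood at 144, 153 and 137 CPM at 5 days, against 150.3, 143 and 139.9 CPM at 0 h. The groups overlapped fully, with the highest and the lowest library both at 5 days. The log2 fold change was 0.01 (SE 0.09, 95% interval -0.19 to 0.21), so the data allow a level at 5 days between 0.874 and 1.15 times that at 0 h. Sox2, a SoxB1 factor that binds with Pax6 at early lens enhancers, stood at 58.2, 69.2 and 60.0 CPM at 5 days, against 76.1, 73.3 and 58.8 CPM at 0 h. The lowest Sox2 libraries of the times were nearly level and the highest was at 0 h. Its log2 fold change was -0.15 (SE 0.12, 95% interval -0.42 to 0.12), with adjusted p = 0.339 by edgeR's quasi-likelihood test, which allows a level between 0.749 and 1.08 times that at 0 h. Retina, ciliary and corneal epithelium express Pax6 as well, and retina also Six3, Sox2 and Prox1. Photoreceptor markers summed to 55.1 to 158 CPM at 5 days and 673 to 1019 CPM at 0 h (16 of 16 tested fell, none at 0). Markers of other retinal cells summed to 1408 to 2030.4 CPM at 5 days and 1536 to 1902 CPM at 0 h (1 of 15 tested rose and 9 fell, with Pou4f2 at 0 at 5 days). Most of that sum was Apoe, which other cells express too, and the rest of the list summed to 285 to 334 CPM at 5 days and 441 to 551 CPM at 0 h. Pigment, ciliary and iris epithelium markers summed to 855 to 1245 CPM at 5 days and 1872 to 2151 CPM at 0 h (5 of 10 tested fell, with Rpe65 at 0 at 5 days), and without Trpm3, its most abundant gene, to 23.6 to 51.5 CPM at 5 days and 137 to 205 CPM at 0 h. The part of these cells in the levels of Pax6, Six3, Sox2 and Prox1 was not tested. Of the 10 factors, 4 had intervals wholly within a 2-fold change in either direction, namely Pax6, Six3, Sox2 and Tfap2a.

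Foxe3, the forkhead factor of the lens epithelium, stood at 105, 100.3 and 41.5 CPM at 5 days, against 208, 216 and 209.7 CPM at 0 h. The 0 h libraries were nearly level, and replicate 3 at 5 days lay far below its 2 companions. The log2 fold change was -1.37 (SE 0.25, 95% interval -1.92 to -0.81), adjusted p = 0.000788 by edgeR's quasi-likelihood test. Pitx3, the homeodomain factor lost in the aphakia mouse, stood at 37.1, 39.6 and 19.2 CPM at 5 days, against 102, 103 and 101 CPM at 0 h. Its mean of 31.9 ± 11.1 CPM at 5 days against 102 ± 1.16 CPM at 0 h (SD, n = 3 each) was a fall by 1.68 on the log2 scale (SE 0.20), adjusted p = 2.85e-05 by edgeR's quasi-likelihood test. As for Foxe3, replicate 3 was the lowest at 5 days.

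Sox1, the SoxB1 factor of later lens cells, stood at 53.3, 60.7 and 26.9 CPM at 5 days, against 146, 132 and 131 CPM at 0 h. The highest 5 day library was below every 0 h library by a wide gap. The log2 fold change was -1.54 (SE 0.22, 95% interval -2.02 to -1.06), adjusted p = 0.000108 by edgeR's quasi-likelihood test. Tfap2a, an AP-2 factor of surface ectoderm and lens epithelium, stood at 182, 192 and 140.1 CPM at 5 days, against 243, 244 and 211 CPM at 0 h. The groups were apart, but by a narrow gap between 192 and 211. Its log2 fold change was -0.44 (SE 0.12, 95% interval -0.71 to -0.17), adjusted p = 0.0114 by edgeR's quasi-likelihood test. The Tfap2a call was lost with total library size as the scaling, at a log2 fold change of -0.31 and an adjusted p of 0.0539, and its adjusted p ran from 0.0015 to 0.0849 over the alternatives. Corneal and conjunctival epithelium expresses Tfap2a as well. Its markers summed to 555, 738 and 462 CPM in replicates 1 to 3 at 5 days and 951 to 1219 CPM at 0 h. Of 7 tested 6 fell, with Krt13 at 0 at 5 days and Krt12 at 0 at 0 h. Krt14 and Krt5, which did not pass the filter, were high in replicate 3 at 5 days, where Tfap2a was lowest. Without Aldh3a1, the most abundant gene of the list, the sums were 87.7 to 116 CPM at 5 days and 146 to 176 CPM at 0 h. Those sums still hold Krt14 and Krt5. The part of this epithelium in the Tfap2a level was not tested. Total library size moved the log2 fold changes of all genes upward by a median of 0.13.

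Prox1, the homeodomain factor of fiber differentiation, stood at 435, 493 and 256.6 CPM at 5 days, against 914, 961 and 894 CPM at 0 h. It gave 2344 to 3924 raw counts per library at 5 days, and the groups lay far apart. The log2 fold change was -1.22 (SE 0.19, 95% interval -1.65 to -0.80), adjusted p = 0.000222 by edgeR's quasi-likelihood test. Maf, a large Maf basic leucine zipper factor, stood at 345, 358 and 245 CPM at 5 days, against 696, 730.4 and 701 CPM at 0 h. Its 5 day libraries stood at 34.6 to 50.5% of the 0 h mean, a narrower range than the 27.8 to 53.4% of Prox1. The Maf log2 fold change was -1.17 (SE 0.14), adjusted p = 2.46e-05 by edgeR's quasi-likelihood test. Macrophages express Maf as well, and their markers rose (17 of 19 tested, median log2 fold change 4.55), with a summed level of 664 to 931 CPM at 5 days and 99.5 to 131 CPM at 0 h and Ccr2 at 0 at 0 h. Several of these markers, among them Ccr2, Aif1 and Spi1, passed the filter through the 5 day libraries. The part of macrophages in the Maf level was not tested.

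Hsf4 stood at 1.75, 3.27 and 2.96 CPM at 5 days, against 35.2, 27.3 and 30.5 CPM at 0 h. These values rest on 11, 26 and 27 raw counts at 5 days, and on 766 over the 3 libraries at 0 h. Every library at 5 days was at or below 10.5% of the 0 h mean. The log2 fold change was -3.51 (SE 0.23, 95% interval -4.00 to -3.01), an 11.4-fold lower level, adjusted p = 1.64e-07 by edgeR's quasi-likelihood test. Hsf4, Pitx3 and Sox1 were the 3 members whose intervals lay wholly beyond a 2-fold fall.

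**Figure D2:**
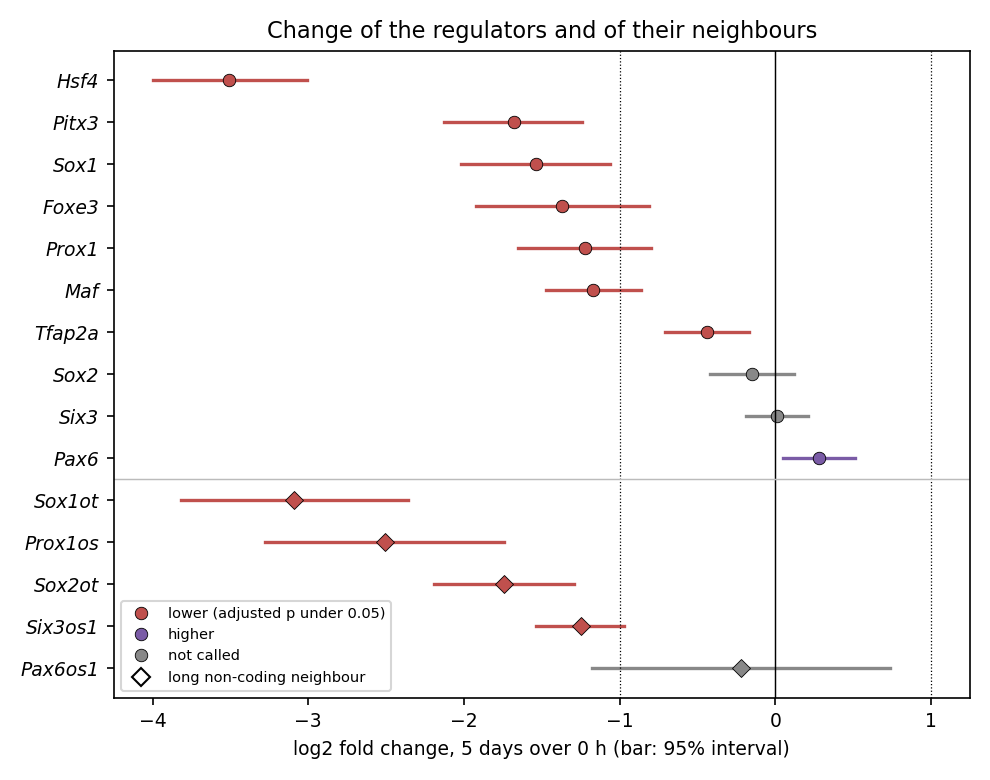
Log2 fold change (5 days over 0 h) of the 10 factors (circles) and 5 long non-coding neighbours (diamonds) with 95% intervals; dotted lines mark a 2-fold change. Hsf4 stands furthest left at -3.51, and Sox2, Six3 and Pax6 lie close to 0.

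The libraries at 5 days differed among themselves. For 6 of the 7 factors that fell the lowest library was replicate 3, the exception being Hsf4, lowest in replicate 1. In replicate 3 Foxe3, Pitx3 and Sox1 stood at 19.6, 18.8 and 19.8% of their 0 h means, while in replicates 1 and 2 these 3 genes stood between 36.4 and 49.8%. Six3 in that library was at 95.1% and Pax6 at 112% of the 0 h mean. That library also held the keratins Krt14 and Krt5, while the corneal and conjunctival marker list as a whole summed lowest there, at 462 CPM. The 7 falls were called in every fit that left out 1 library. Without replicate 3 at 5 days Foxe3 was at -1.05, Pitx3 at -1.42, Sox1 at -1.27, Prox1 at -1.0 and Maf at -1.02 on the log2 scale. The summed level of the lens fiber markers was lowest in replicate 3 too, at 8984, 12808 and 4044 CPM in replicates 1 to 3 at 5 days, and 63015 to 71771 CPM at 0 h, and 11 of 11 tested fell. Of these, Birc7 and Dnase2b passed the filter through the 0 h libraries. Lens epithelium markers outside the 10 factors summed to 5088, 6225 and 2698 CPM at 5 days and 21950.1 to 26336 CPM at 0 h, and 10 of 11 tested fell. Without Crybb2 and Cryab, their most abundant genes, the fiber list summed to 1805 to 3108 CPM at 5 days and 12578 to 15289 CPM at 0 h, and the epithelium list to 1323 to 1771 CPM at 5 days and 4027 to 4505 CPM at 0 h. The part of these shifts, and of surface epithelium, in the falls of the factors was not tested.

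**Figure D3:**
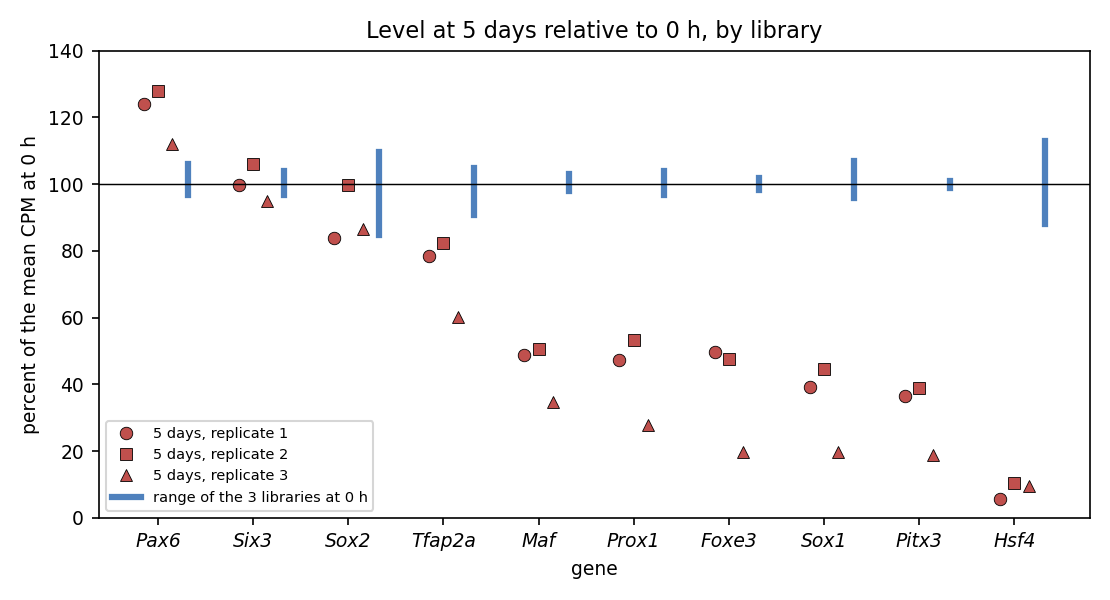
Level of each factor in the 3 libraries at 5 days (red symbols) as a percent of the mean CPM at 0 h, with the range of the 0 h libraries as a blue bar. Replicate 3 (triangles) stands well below the others for Foxe3, Sox1, Pitx3 and Prox1, and near the others for Six3 and Sox2.

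Ratios within a library do not depend on the scaling. Foxe3 counts per Pax6 count were 0.131, 0.12 and 0.0569 at 5 days, against 0.3, 0.343 and 0.333 at 0 h, a 3.37-fold lower ratio. Prox1 counts per Pax6 count were 0.54, 0.589 and 0.352 at 5 days, against 1.32, 1.52 and 1.42 at 0 h, so Prox1 gave fewer reads than Pax6 at 5 days and more at 0 h. For the SoxB1 pair, Sox1 counts per Sox2 count were 0.915, 0.877 and 0.449 at 5 days, against 1.92, 1.8 and 2.22 at 0 h. No library of one time overlapped the other in any of these 3 ratios, and in exact permutation tests (two-sided) each gave p = 0.1, which is the minimum for groups of 3. The differences in mean log2 ratio were -1.75, -1.56 and -1.47.

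Several of the factors have long non-coding neighbours, and 4 of the 5 that were detected fell, against 22.5% of all tested genes. The median log2 fold change of the 5 was -1.74. Sox2ot, a transcript on the same strand with Sox2 inside its span, stood at 90.6, 142 and 67.0 CPM at 5 days, against 336, 341 and 323 CPM at 0 h. Its fall by 1.74 on the log2 scale (SE 0.21) stands beside the Sox2 change of -0.15. Six3os1, which starts near Six3 on the opposite strand, stood at 100.3, 127 and 90.7 CPM at 5 days, against 283, 239 and 236 CPM at 0 h, and fell by 1.25 (SE 0.13), where Six3 changed by 0.01. The non-coding neighbours of both factors that did not pass the test fell. Sox1ot, on the strand of Sox1, stood at 26.4, 38.6 and 9.42 CPM at 5 days, against 222, 215 and 188 CPM at 0 h. Sox1ot fell by 3.09 (SE 0.33), beside the fall of Sox1 by 1.54.

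Counts of Sox2ot per Sox2 count were 1.55, 2.05 and 1.12 at 5 days, against 4.42, 4.65 and 5.5 at 0 h, and the groups lay apart. Six3os1 counts per Six3 count were 0.695, 0.825 and 0.661 at 5 days, against 1.88, 1.67 and 1.69 at 0 h. Sox1ot counts per Sox1 count were 0.496, 0.636 and 0.35 at 5 days, against 1.52, 1.63 and 1.44 at 0 h. These 3 ratios were chosen after the values were seen, and each gave p = 0.1 in the same exact permutation test. Prox1os, antisense to the Prox1 start, fell by 2.51 (SE 0.35) with 1.53 to 5.78 CPM at 5 days, against 17.8 to 22.8 CPM at 0 h. It shares 133 exon bases, 16.1% of its own, with the far more abundant Prox1 on the opposite strand, so its count may hold Prox1 reads. Pax6os1 was low at both times, 1.38 to 2.41 CPM at 5 days and 1.79 to 2.83 CPM at 0 h, and its log2 fold change of -0.22 had an interval of -1.18 to 0.74. In GENCODE M21, Sox2ot and Sox1ot share 0 exon bases with Sox2 and Sox1, and Six3os1 shares 106 with Six3, on the opposite strand. Since the strand setting of the counts is not given in the sources, reads of such shared bases cannot be assigned. As a share of the member's own exon bases, the overlap with another annotated gene was highest for Tfap2a, at 7.8%, with an antisense gene.

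**Figure D4:**
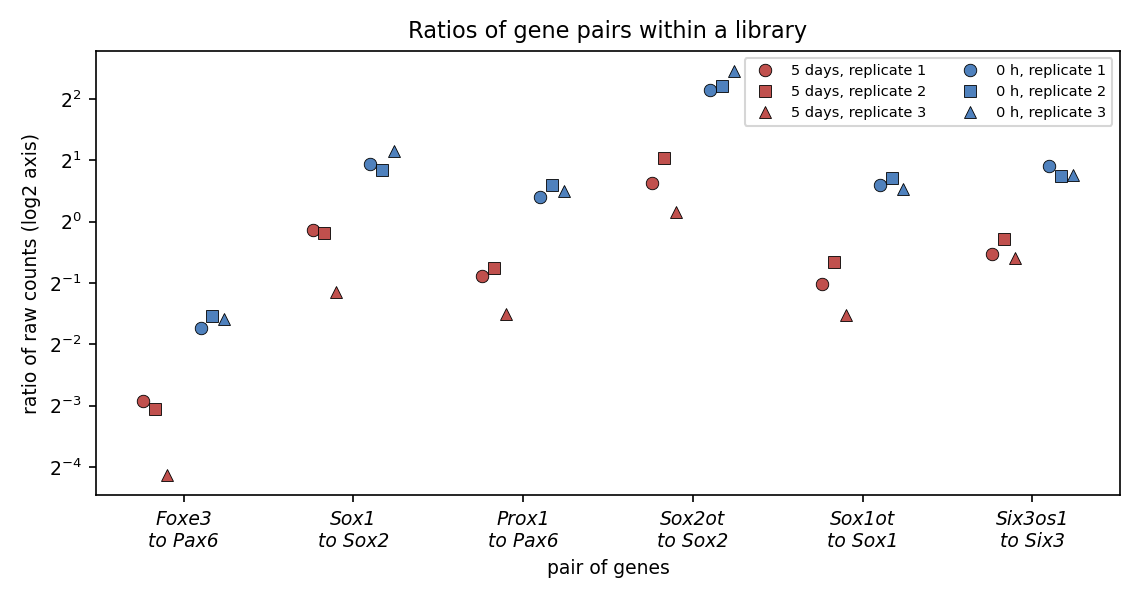
Ratio of raw counts of 6 gene pairs within each library (log2 axis), 5 days in red left of 0 h in blue. For every pair the 3 libraries at 5 days lie below the 3 at 0 h.

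Per kilobase of merged exon (GENCODE M21), Foxe3 ranked first at both times, with 95.04 ± 41.0 CPM per kb at 5 days and 244 ± 5.05 CPM per kb at 0 h (SD, n = 3 each). At 5 days the order was Foxe3, Pax6, Prox1, Maf, Tfap2a, Sox2, Six3, Pitx3, Sox1 and Hsf4, with Hsf4 at 1.52 ± 0.457 CPM per kb. Neighbours in that order overlapped in their libraries apart from Pax6 over Prox1, Sox2 over Six3 and Sox1 over Hsf4. At 0 h the order was Foxe3, Prox1, Maf, Pitx3, Pax6, Tfap2a, Sox2, Sox1, Six3 and Hsf4, and neighbours overlapped for Sox2 with Sox1 and for Sox1 with Six3. The place of Pax6 depends on the length used: with the longest coding transcript it ranked first at 5 days, at 178.68 CPM per kb, and second at 0 h, at 147.05 CPM per kb, since its merged exons run to 11.69 kb. Pitx3 ranked 8 at 5 days on either length, and 4 or 5 at 0 h.

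Of 41 listed relatives 23 passed the low-count filter, and 8 rose, 7 fell and 8 did not pass, with a median log2 fold change of 0.07. Over all tested genes 25.1% rose and 22.5% fell. Sox3, the third SoxB1 gene, had 0.159, 0.377 and 0.219 CPM at 5 days, against 1.62, 4.17 and 3.1 CPM at 0 h, and fell by 3.47 on the log2 scale (SE 0.62). It passed the filter through its 0 h libraries. Sox9, a SoxE gene of eye and cartilage development, had 266, 231 and 284 CPM at 5 days, against 91.3, 106 and 114 CPM at 0 h. Every Sox9 library at 5 days was above 200 CPM, and the gene rose by 1.33 (SE 0.12). Its SoxE relative Sox8 rose by 3.40 (SE 0.31), with 21.1 to 46.9 CPM at 5 days and 2.42 to 4.17 CPM at 0 h.

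Of the SoxC genes, which act in progenitor and migrating cells, Sox4 had 259.1, 238 and 283 CPM at 5 days, against 99.1, 101 and 95.5 CPM at 0 h, a log2 fold change of 1.40 (SE 0.10). Sox11, needed for normal eye development in mice, had 10.3, 19.7 and 18.5 CPM at 5 days, against 0, 0.11 and 0.715 CPM at 0 h. Its log2 fold change was 5.78 (SE 0.56), and it passed the filter through its 5 day libraries. Of the Maf relatives, Mafg, a small Maf partner, fell by 0.45 (SE 0.10), with 88.1 to 104 CPM at 5 days and 121 to 139 CPM at 0 h. Hsf1 and Hsf2, heat shock factors of most cells that were named here after their values were seen, were not called, at -0.15 and 0.15. Six5 fell by 0.95 (SE 0.15) and Sox6 by 1.32 (SE 0.29). The adjusted p of each relative named as risen or fallen was at most 0.00269 by edgeR's quasi-likelihood test.

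Of 44 other transcriptional regulators of the lens or its placode 41 were tested, and 9 rose, 11 fell and 21 did not pass, with a median log2 fold change of -0.04. Changes in either direction were thus about as frequent as among all tested genes, of which 47.6% passed. With total library size as the scaling, 14 were called higher. Mab21l1, needed for lens placode invagination in mice, had 95.01, 108 and 60.2 CPM at 5 days, against 228, 249 and 221 CPM at 0 h, and fell by 1.41 (SE 0.17). It was again lowest in replicate 3. The nuclear factor Nfia fell by 0.70 (SE 0.14), Meis2, a TALE homeodomain gene upstream of Pax6 in the mouse lens, by 0.47 (SE 0.11), and Id1, an inhibitor of basic helix-loop-helix factors and a BMP target, by 1.61 (SE 0.23). Ets1, an ETS factor known from endothelial and immune cells, had 67.2, 62.8 and 84.9 CPM at 5 days, against 0.943, 1.76 and 1.55 CPM at 0 h. Its groups were far apart and its log2 fold change of 5.62 (SE 0.21) was the largest rise of the list. Ets1 passed the filter through its 5 day libraries. Vessel markers summed to 397 to 450.1 CPM at 5 days and 199 to 250.3 CPM at 0 h (5 of 7 tested rose, with Sox17 at 0 at 0 h). Most of that was Pdpn, which other cells express too, and the rest summed to 29.6 to 62.4 CPM at 5 days and 8.89 to 15.6 CPM at 0 h. Their part in the Ets1 level, like that of the macrophage markers above, was not tested. The chromatin remodellers Smarca4 and Smarca5 rose by 0.35 and 0.51, and Foxp1 by 0.24 (SE 0.09). Ctnnb1, or β-catenin, was not called (0.12, 95% interval -0.11 to 0.36).

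Among genes placed downstream of the 10 factors by mouse knockouts or promoter work, most fell. Of all tested genes 22.5% fell and 25.1% rose. Of 22 listed, 21 were tested, and 19 fell, 1 rose (Sox11) and 1 did not pass, the median log2 fold change being -3.01. Crygb, Crygc, Crygd, Cryge, Crygf and Dnase2b had at most 9 counts over the 5 day libraries and passed the filter through 0 h. Sox11 passed it through 5 days, so the filter fixed the direction of these calls. The lists overlap, since Cryab, Cdh1, Mab21l1, Mip, Bfsp1 and Dnase2b also stand among the lens markers. Cryaa, the α-crystallin chaperone that Pax6 and Maf activate, had 12373, 16075 and 5115 CPM at 5 days, against 57499, 70445 and 58999 CPM at 0 h, and fell by 2.48 (SE 0.34). Cryab, its partner, fell by 2.66 (SE 0.34), and Crygs by 3.01 (SE 0.43). All 3 were lowest in replicate 3.

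Crygb, a γ-crystallin of fiber cells, gave 0 counts at 5 days and 12137 over the 0 h libraries, so it was at least 3795-fold lower if 3 counts are taken as the floor for the 5 day group. The γ-crystallin genes are close copies, and reads that align to more than 1 of them may not have been counted. Vim, an intermediate filament of lens and mesenchyme placed downstream of Hsf4, had 4986, 4619 and 4404 CPM at 5 days, against 4467, 5094 and 4461 CPM at 0 h. Its groups overlapped, and its log2 fold change had a 95% interval of -0.29 to 0.28. The summed level of the list was 11664 to 27518 CPM at 5 days and 96423 to 112479 CPM at 0 h.

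**Figure D5:**
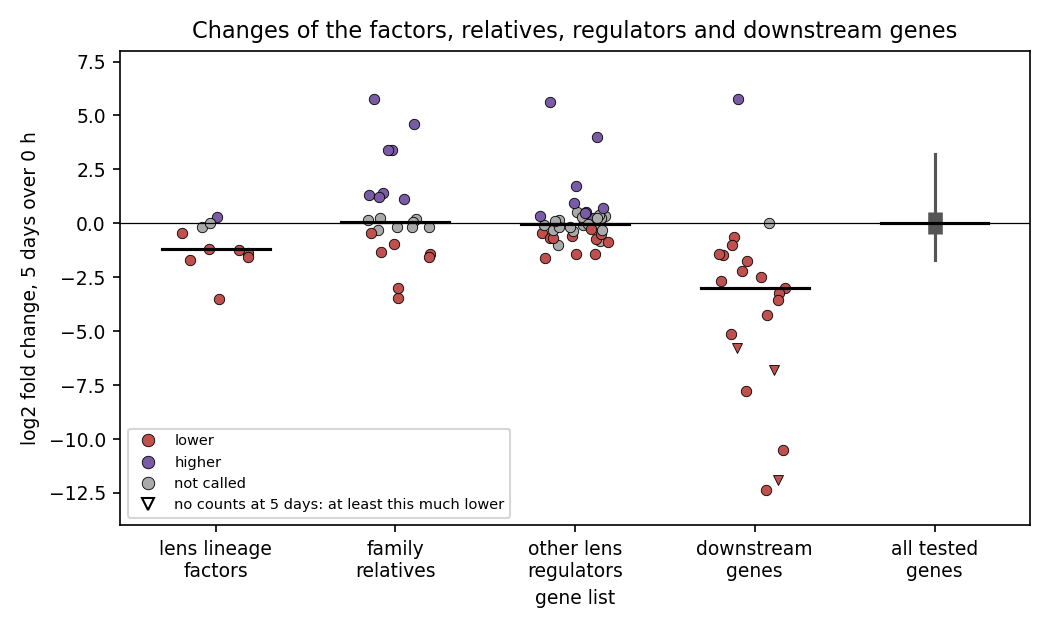
Log2 fold change (5 days over 0 h) of each tested gene of the factors, their relatives, other lens regulators and downstream genes, with list medians as bars; triangles are genes with 0 counts at 5 days, drawn at their bound. For all tested genes the thick grey bar spans the percentiles 25 to 75 and the thin line 5 to 95. The factors have a median of -1.19 and the downstream genes one of -3.01, while the medians of relatives and other regulators lie near 0.

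The genes whose levels followed each factor most closely were sought among 4883 genes (4884 for Hsf4) whose log2 CPM averaged 5 or more, by Pearson's r over the 6 libraries. Since the points are 3 libraries of each of 2 times, any gene that changed between the times can score highly, and the values are a description. Foxe3 was followed by Pdgfra, a growth factor receptor (r = 0.997), Gabrg3 (0.996) and the laminin receptor subunit Itga6 (0.996), and 237 genes were over 0.95. Pitx3 was followed by B3gnt5, Sept8 and the basement membrane gene Nid1, Sox1 by Msl2, Gbf1 and Adamts18, and Prox1 by Erich5, Cap2 and Gps2. For Maf the closest were Car14, Afdn and Lig3, for Hsf4 Gas6, Adgrb2 and Crebrf, and for Tfap2a Pnrc2 and the neurotrophin receptor Ngfr. Pax6 was followed by Dync1li1, Slk and Skap2 at 0.994 to 0.996. Genes over 0.95 numbered 682 for Maf, 555 for Pitx3, 513 for Hsf4, 476 for Prox1, 448 for Sox1, 118 for Tfap2a and 55 for Pax6. Sox2 had 2 genes over 0.95, Lpcat1 and Hif1an, and Six3 none, with Adamts6 and Prpf18 closest at 0.945.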

How the data were processed

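Per the labels, libraries were prepared from total RNA of lens capsules using a strand-preserving low-input SMARTer kit. Per the submitters' processing notes, the authors used HISAT2, HTSeq and edgeR with build GRCm39, and they deposited unnormalised read counts for each Ensembl identifier. Versions and the strand setting are not given in the sources. Summary entries (32.26 to 42.55% of reads per library) were left out. Symbols (91.23% of genes), exon lengths and overlaps came from GENCODE M21 on GRCm38.

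Counts were filtered with edgeR's default filter, TMM-scaled and fitted in edgeR 4.0.16 under R 4.3.3, with the quasi-likelihood test, a threshold of 0.05 and p-values adjusted by Benjamini-Hochberg over all 14676 genes. The script was tested on simulated data. CPM use the TMM-scaled library size. Ratios of raw counts were compared by exact permutation. Alternatives were other scalings and filters, DESeq2 1.42.0, limma-voom (limma 3.58.1), replicate blocks and leaving out each library. The members and lists were chosen with earlier results of these data known. Beside the 10 members and the non-coding neighbours, each list gave its 3 called genes of highest level and the 1 of largest change per direction, and its uncalled gene of highest level. For each member the 3 genes of highest correlation are named. A few genes that these rules pick are not reported here.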

Additional observations from a re-analysis of the deposited data

How the results depend on the processing

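The number of factors called higher (Pax6 alone) was 0 without the low-count filter, 0 when genes needed 2 CPM or more in 3 libraries, 0 with either replicate block, 0 in the 4 libraries of the second block fitted without it, and 0 to 1 over the fits that left out 1 library. The number called lower was 7 in every fit that left out 1 library, and 6 with total library size, where Tfap2a was not called. The Six3 log2 fold change turned to -0.03 without replicate 2 at 5 days, -0.01 without replicate 2 at 0 h and -0.02 without replicate 3 at 0 h, within a range of -0.03 to 0.03 over such fits. Foxe3, Pitx3, Sox1, Prox1, Maf and Hsf4 were called lower in all 16 alternatives. The Foxe3 value ranged from -1.59 to -1.03 and that of Hsf4 from -3.67 to -3.32. Other lens regulators called higher numbered 14 with total library size, against 9, and 6 to 9 when 1 library was left out; the cause was not tested. The other list counts stayed within 1.5 times, and no ratio changed direction.

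Whether the numbers pair pools is not known. Deviations of same-numbered libraries correlated at 0.039, -0.09 and 0.043, and the values reported use no block. With the replicate block by title number Pax6 had a log2 fold change of 0.28 (adjusted p = 0.086 by edgeR). The block by the number in the library names could use only 4 libraries, without replicate 3 at 5 days and replicate 2 at 0 h. In it Pax6 was at 0.31 (adjusted p = 0.0768 by edgeR), Tfap2a at -0.28 (adjusted p = 0.0849) and 6 factors were called lower. Prox1 was at -0.97 and Maf at -0.99 in that fit, short of a 2-fold fall. The same 4 libraries with no block, an alternative chosen after seeing the data, gave 0.31 for Pax6 (adjusted p = 0.0524 by edgeR) and -0.28 for Tfap2a (adjusted p = 0.0448), with 7 called lower. Depth limits Hsf4 most, at 11 to 27 counts per library at 5 days.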
